A study of Mus musculus with 36 samples.

Results

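Class switch recombination exchanges the constant region of the antibody heavy chain in activated B cells. It starts when activation-induced deaminase (AID) turns cytosines of the switch regions into uracils, which base excision and mismatch repair convert into DNA breaks. The breaks are then sensed, shielded from resection and joined. Replication timing (RT) is the order in which stretches of a chromosome are copied during S phase, and it follows long domains, measured in kilobases (kb) or megabases (Mb), that differ between cell types. Where the genes of this repair pathway themselves lie in the RT maps of B cells was the question asked of the data here.

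A list of 7 genes was examined, taken by name and placed by the start of the gene on its own strand, out of 22350 protein-coding genes of the annotation. *Ung*, uracil-DNA glycosylase, removes the uracil that AID leaves. *Msh6*, a subunit of the mismatch recognition complex, binds the mispaired base. *Atm* is the kinase that signals DNA double-strand breaks. *Trp53bp1* encodes 53BP1, which protects broken ends from resection, and *Rif1* encodes its effector RIF1, which also takes part in the control of RT and is the gene deleted elsewhere in the series. *Xrcc4* and *Lig4* encode the partners of the ligase complex that seals breaks by classical non-homologous end joining.

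RT had been measured by Repli-seq, in which newly made DNA is labelled with BrdU and the cells are sorted into early and late S phase. The labelled DNA of each fraction is then pulled down with an antibody against BrdU and sequenced. The series had 36 libraries in 7 groups, of which the maps used here rest on 8 libraries, 4 for each B cell map, from 2 early and 2 late S phase libraries. The CH12 map comes from CH12, a B lymphoma line of the mouse, infected with a lentivirus expressing an shRNA against LacZ (shLacZ), the infection control, without deletion of *Rif1*. The labels give the same culture medium, named for CH12, for all samples, with IL4, CD40 and TGF beta stimulation. The primary B map comes from WT primary activated splenic B cells, that is *Rif1*+/+ cells. The age of the mice and the way the primary B cells were activated were not given in the labels. The last map is named for WT mouse embryonic fibroblasts (MEF), and since the labels tie it to no sample, its cell type and its separate origin cannot be told apart. A line of tumour origin carrying a virus is a limited model of a normal B cell, so both B cell maps are given side by side throughout.

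Each map cuts the chromosomes into domains made of 20 kb bins, which are called early (E), middle (M) or late (L). State calling was done on pooled replicates, which leaves a single map for each condition. A state, length or distance therefore comes without a replicate error, no test between maps was made, and read depth is unknown. The log2 ratios of early to late reads had been smoothed over 300 kb, and a gene start closer to a domain edge than that is pointed out below. In each map all 20 chromosomes were as long as in NCBIM37 (mm9). The primary B map gave a state to 128935 of 131957 bins, and the other maps to all of them. E and L domains touched in 0 places, but M was named by that property, so it is no check of the names. The maps hold no expression values, so the cell type labels could not be checked against marker genes.

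The genes divided between all 3 states, and the division was the same in both B cell maps. *Ung*, *Msh6* and *Trp53bp1* were E in all 3 maps, a combination found at 43.9% of protein-coding gene starts. *Rif1* was M in CH12 and primary B cells and E in the MEF map (5.71% of gene starts). *Atm* was M in all 3 maps (10.8%). *Xrcc4* was L in both B cell maps and M in the MEF map (3.88%), and *Lig4* was L in all 3 (8.12%). The pair of genes whose products form a single ligase complex thus started in L domains in both B cell maps, on separate chromosomes. The *Xrcc4* start lay 209 kb (CH12) and 189 kb (primary B) from an edge, inside the smoothing span. For *Lig4* the distances were 562 and 342 kb.

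In CH12 cells 3 of the 7 genes were E, 2 were M and 2 were L, where all protein-coding gene starts were 50.6% E, 27.2% M and 22.1% L. In primary B cells the counts were again 3 E, 2 M and 2 L, where all gene starts were 58% E, 29.1% M and 12.9% L. The MEF map gave 4 E, 2 M and 1 L, against 58.6% E, 29.6% M and 11.9% L of all gene starts. No difference between so short a list and the background was tested. The state was the same in both B cell maps for 7 of 7 genes (78.5% of all gene starts) and the same in all 3 maps for 5 of 7 (62.8%).

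**Figure D1:**
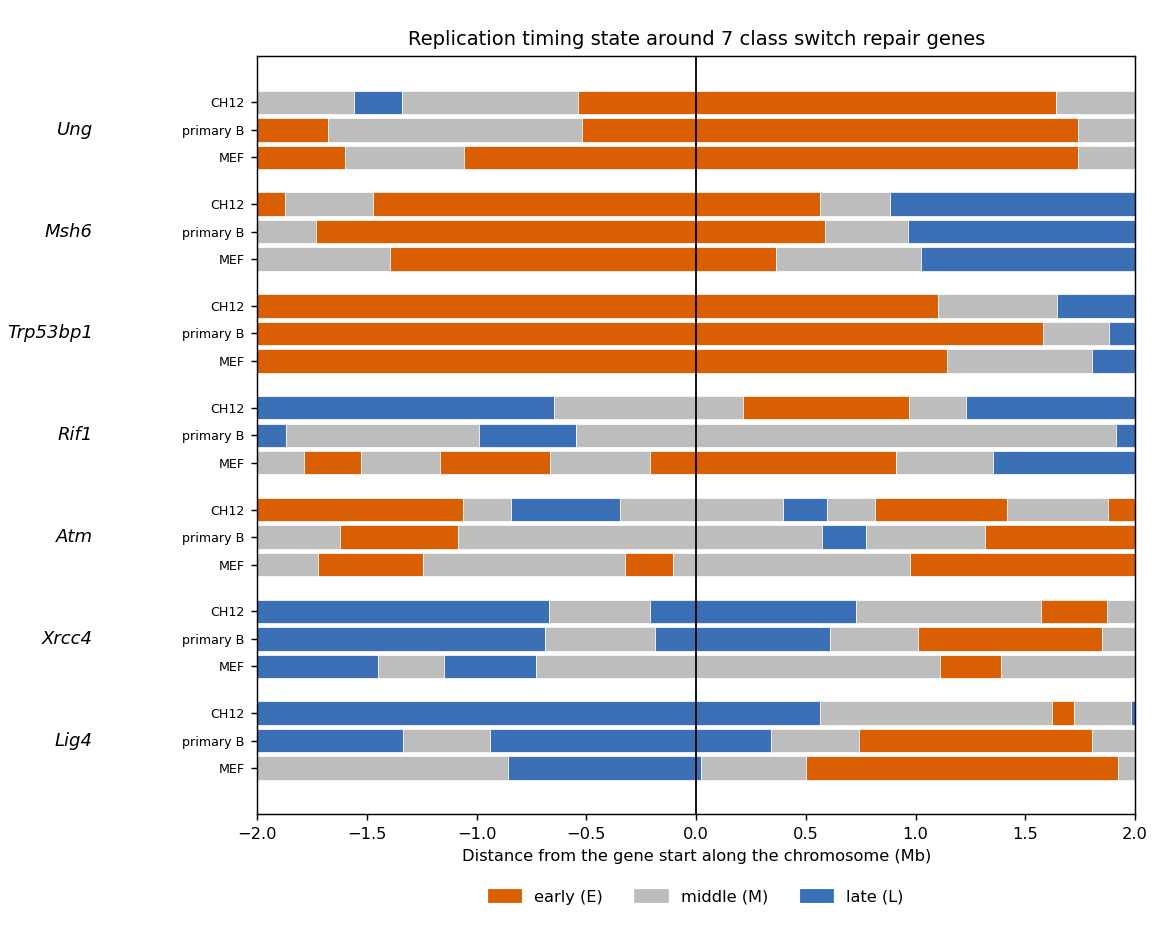
State of the domains within 2 Mb of each gene start (x axis, Mb along the chromosome, vertical line at the start) in the CH12, primary B and MEF maps (rows), coloured E, M or L. The starts of Ung, Msh6 and Trp53bp1 lie inside E domains in each map, Rif1 and Atm lie in M domains in both B cell maps, and Xrcc4 and Lig4 lie in L domains in both.

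**Figure D2:**
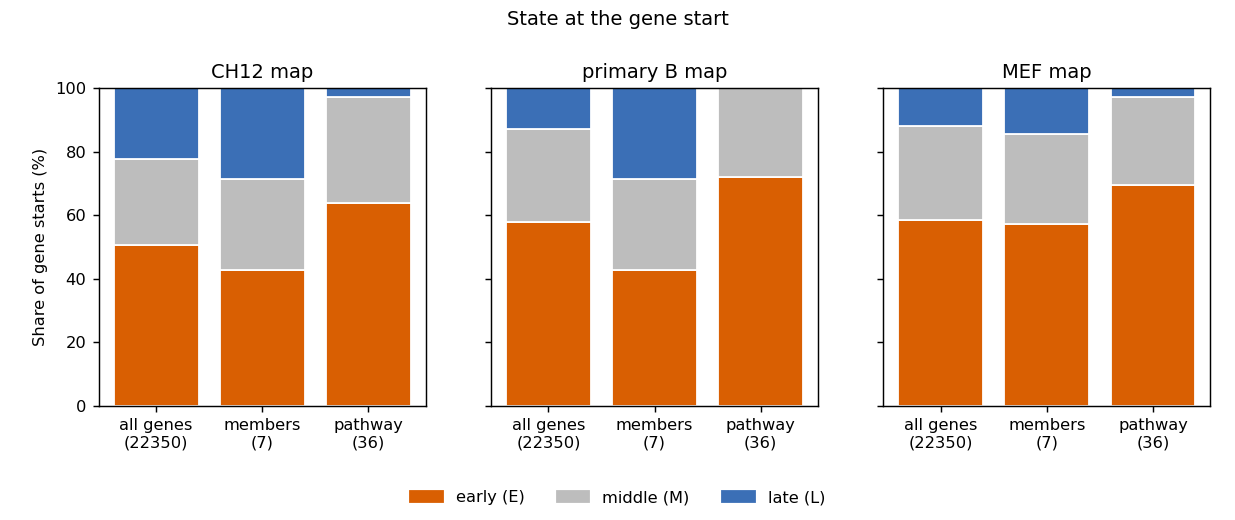
Share of gene starts (y axis, %) in E, M and L in each map for all 22350 protein-coding genes, the 7 genes and the 36 other genes of the pathway. The 7 genes hold 2 L starts in each B cell map, and the 36 pathway genes hold 1 in CH12 and 0 in primary B cells. Of all gene starts, 22.1% were L in CH12 and 12.9% in primary B cells.

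Sequence before the gene start is shown for 4 genes, 1 E, 1 M and both L. In the 250 bases before the start, given below, both late genes held more CG than most L starts of the B cell maps. For both of them that window overlaps a neighbouring gene on the opposite strand, so its CG is not theirs alone. The window before *Atm* lies between its start and that of the neighbouring gene *Npat*, 0.307 kb away, so its CG may not be that of *Atm* alone. The printed stretches of 150 bases were not compared with other gene starts. Each line gives 150 bases, 5′ to 3′ on the strand of the gene, in lower case with each CG dinucleotide in capitals. The stretch ends at the base before the gene start for *Trp53bp1* (chr2:121097144-121097293, minus strand) and *Atm* (chr9:53344846-53344995, minus strand), and neither overlaps an annotated exon. For *Xrcc4* and *Lig4* the nearest 150 bases without an exon are shown, which lie 175 bases before the *Xrcc4* start inside the neighbouring gene *Tmem167* (chr13:90229389-90229538, minus strand) and 333 bases before the *Lig4* start inside *Abhd13* (chr8:9978020-9978169, minus strand). All coordinates are NCBIM37.
Trp53bp1, E in all maps: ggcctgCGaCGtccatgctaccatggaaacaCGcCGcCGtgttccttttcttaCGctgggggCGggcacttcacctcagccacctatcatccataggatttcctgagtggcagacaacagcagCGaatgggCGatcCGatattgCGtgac
Atm, M in all maps: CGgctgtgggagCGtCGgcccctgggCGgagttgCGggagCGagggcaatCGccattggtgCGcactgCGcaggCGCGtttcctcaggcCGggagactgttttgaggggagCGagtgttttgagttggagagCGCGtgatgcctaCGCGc
Xrcc4, L in B cells and M in the MEF map: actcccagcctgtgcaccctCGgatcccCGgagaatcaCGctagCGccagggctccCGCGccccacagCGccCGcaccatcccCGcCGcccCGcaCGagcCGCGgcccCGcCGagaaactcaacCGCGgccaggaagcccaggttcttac
Lig4, L in all maps: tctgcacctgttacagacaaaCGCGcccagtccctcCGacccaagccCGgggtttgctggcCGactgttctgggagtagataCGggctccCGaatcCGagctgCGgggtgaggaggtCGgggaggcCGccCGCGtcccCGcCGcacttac
These stretches held 11 CG for *Trp53bp1*, 17 for *Atm*, 18 for *Xrcc4* and 15 for *Lig4*. The 150 bases directly before the start held 19 for *Msh6* and 5 for *Ung*, both E in all maps. The L genes lay within the range of the E genes, although their stretches lie further from the start.

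Over the full 250 bases before the gene start, exons of neighbours included, *Lig4* had 28 CG, *Msh6* 27, *Xrcc4* 26, *Atm* 26, *Trp53bp1* 13 and *Ung* 6. The letters CG read the same on both strands, and 92.5% of all protein-coding gene starts had at least 1 in this window. The median was 8 over all gene starts. It was 12 for E starts, 8 for M starts and 2 for L starts in CH12, and 12, 6 and 2 in primary B cells. Of these 6 genes, 5 lay above the median of their own state in each map and 4 above its upper quartile, with *Ung* the one below the median. *Lig4* had more CG than 91.6% of all gene starts and *Xrcc4* more than 89.3%. For L starts the upper quartile stood at 9 CG in CH12 and at 6 in the primary B map.

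*Ung* (chr5:114580395-114589332, plus strand) lay in gene-dense surroundings, with 46 other protein-coding gene starts within 1 Mb, a number exceeded in the list by *Trp53bp1* with 48. Its E domain was 2180 kb long in CH12, 2260 kb in primary B cells and 2800 kb in the MEF map. The start was 540 kb from the nearest edge in CH12, 520 kb in primary B cells and 1060 kb in the MEF map. The lower edge of this domain differed by 20 kb and the upper edge by 100 kb between the B cell maps, where the median over all genes E in both was 80 kb at either edge. The *Ung* domain held 62 gene starts in CH12, or 28.4 per Mb, against 18.9 per Mb over all E domains of that map. Its neighbour *Alkbh2*, a DNA repair demethylase, starts 2.17 kb away.

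*Msh6* (chr17:88374390-88390223, plus strand) was E in a much sparser region. The E domain measured 2040 kb in CH12, 2320 kb in primary B cells and 1760 kb in the MEF map, and held 9.31, 8.19 and 9.09 gene starts per Mb. Over all M domains the density was 8.41 per Mb in CH12, 7.77 in primary B cells and 6.48 in the MEF map, and over all E domains it was 18.9, 17.6 and 16.1. The start was 566, 586 and 366 kb from the nearest edge. An L domain began 886 kb above *Msh6* in CH12, 966 kb in primary B cells and 1026 kb in the MEF map.

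*Trp53bp1* (chr2:121019017-121097143, minus strand) lay deepest inside its domain. The E domain was 4200 kb in CH12, longer than the domain of 86.7% of E gene starts, 4680 kb in primary B cells (84.2%) and 5660 kb in the MEF map (81.3%). The nearest edge was 1103, 1583 and 1143 kb away. The whole 1 Mb on either side of the start was E in each map. The lower edge coincided in both B cell maps and the upper edge differed by 480 kb. The domain contained 101, 108 and 106 gene starts.

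The 3 early genes were therefore beyond the smoothing span in the B cell maps, at 520 kb or more from an edge. The median over all E gene starts was 440 kb in CH12 and 437 kb in primary B cells. *Ung* was farther from an edge than 57.0% and 55.8% of E starts in these maps, and *Msh6* than 58.6% and 59.7%. For *Trp53bp1* the shares were 82.4% and 90.3%.

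*Rif1* (chr2:51928357-51977903, plus strand) had the same state in both B cell maps in surroundings that differed. In CH12 its M domain was 860 kb long, with a 1620 kb L domain below it and a 760 kb E domain that began 212 kb above the gene start. In primary B cells the M domain was 2460 kb long, longer than the domain of 96.5% of M gene starts, and L domains stood on both sides. The nearest E base was 5588 kb away in primary B cells, against a median of 379 kb for M gene starts of that map. The CH12 median was 515 kb. The lower edge of the M domain differed by 100 kb between the maps and the upper edge by 1700 kb, where the median difference over genes M in both maps was 160 kb at either edge.

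In the MEF map *Rif1* started in an E domain of 1120 kb, 208 kb from its lower edge. The gene start was thus nearer to an edge than the smoothing span in CH12 and MEF, at 212 and 208 kb, and beyond it in primary B cells at 548 kb. Within 1 Mb of the start, E bins covered 38.0% of the sequence in CH12, 0% in primary B cells and 72.6% in the MEF map. The number of other gene starts within 1 Mb was 11, below the lower quartile of 15 over all genes.

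*Atm* (chr9:53247254-53344845, minus strand) starts 0.307 kb from *Npat*, a histone gene regulator that runs away from it. Its M domain was 740 kb in CH12, 1660 kb in primary B cells and 1080 kb in the MEF map. The start lay close to the middle of the domain in CH12, at 46.6% of its length, with L domains on both sides at 345 and 395 kb. In primary B cells an E domain adjoined the M domain below and an L domain above, 1085 and 575 kb from the start. In the MEF map both flanks were E and the nearer was 105 kb away, inside the smoothing span. The flanks of *Atm* thus were L and L in CH12, E and L in primary B cells, and E and E in the MEF map, while the start was M in each.

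The *Atm* domain was gene-rich for an M domain in CH12, with 14 gene starts or 18.9 per Mb, the density of E domains as a whole. In primary B cells it held 17 gene starts, 10.2 per Mb, and in the MEF map 13, or 12.0 per Mb. Within 1 Mb of the *Atm* start lay 18 other gene starts, below the median of 29 over all genes.

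*Xrcc4* (chr13:89913632-90229213, minus strand) was the longest of the genes at 316 kb, where the median protein-coding gene measured 15.4 kb and the upper quartile 42.5 kb. It began in an L domain of 940 kb in CH12 and 800 kb in primary B cells, 209 and 189 kb from the lower edge, which the gene body crosses. In CH12 66.3% of the gene body was L and 33.7% M, and in primary B cells 60.0% was L and 40.0% M. The 5′ end of *Xrcc4* was therefore L and its 3′ end M in both B cell maps. The other 6 genes lay wholly within 1 state in each map. The crossing point differed by 20 kb between the B cell maps and the upper edge by 120 kb, against medians of 200 and 180 kb over genes L in both. Both distances lie within the smoothing span, so where along the gene the state changes is uncertain to about that length.

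In the MEF map the whole *Xrcc4* gene was M, in a domain of 1840 kb, with its start 729 kb from an edge. Gene starts were scarce around *Xrcc4*, with 5 others within 1 Mb, the lowest number of the list. *Tmem167* starts 0.485 kb away on the opposite strand. The nearest E base was 1571 kb away in CH12, 1011 kb in primary B cells and 1111 kb in the MEF map.

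*Lig4* (chr8:9970020-9977686, minus strand) began in the longest domain of the list in CH12, an L domain of 5920 kb, longer than the domain of 88.4% of L gene starts. In primary B cells the L domain measured 1280 kb and in the MEF map 880 kb. The primary B domain lay wholly inside the CH12 domain and made up 21.6% of it. The lower edge differed by 4420 kb and the upper edge by 220 kb. The gene start was 562 kb from the upper edge in CH12, 342 kb in primary B cells and 22.3 kb in the MEF map, which is about 1 bin, so the L state of *Lig4* in the MEF map rests on the position of a single edge. The nearest E base was 1622, 742 and 502 kb away in the same order.

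*Lig4* and *Abhd13* start 0.021 kb apart on opposite strands. With 6 other gene starts within 1 Mb, *Lig4* was, beside *Xrcc4*, in the sparsest surroundings of the list, where the median over all genes was 29 and the lower quartile 15.

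**Figure D3:**
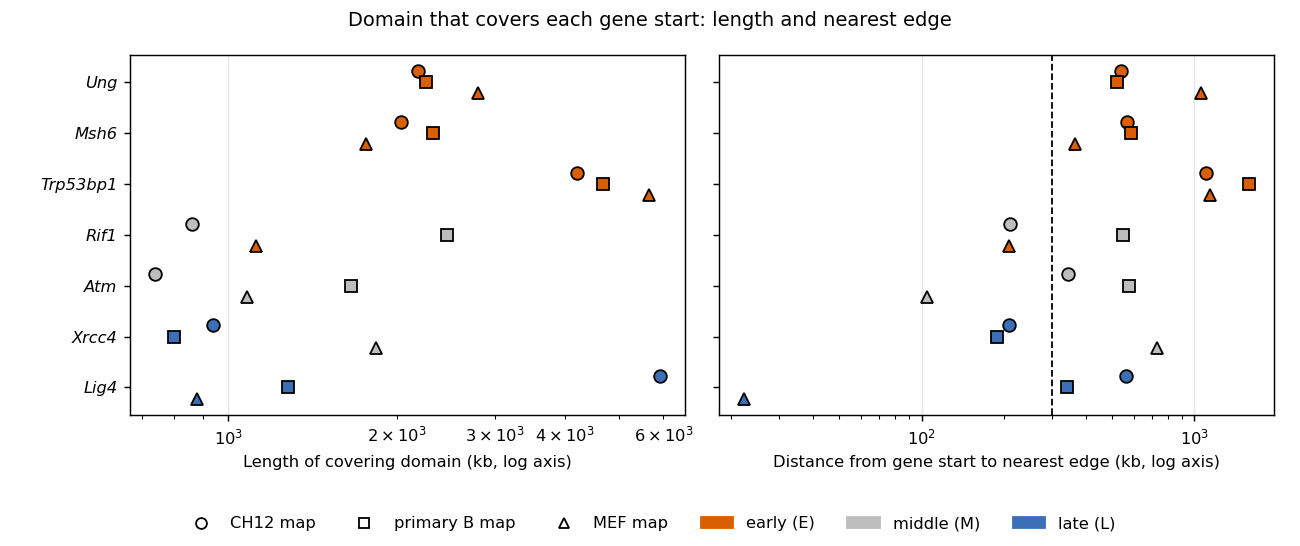
Length of the domain covering each gene start (left, kb, log axis) and distance from the start to the nearest domain edge (right, kb, log axis) in each map, with marker shape for the map and colour for the state. The dashed line marks the smoothing span of 300 kb, and the Lig4 domain runs from 880 kb in the MEF map to 5920 kb in CH12.

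Over the 7 genes, the median length of the covering domain was 2040 kb in CH12, 2260 kb in primary B cells and 1760 kb in the MEF map. The median distance to the nearest edge was 540, 548 and 366 kb. Over all E, M and L gene starts the median length was 2200, 660 and 2300 kb in CH12. It was 2100, 740 and 1960 kb in primary B cells, and 2660, 1180 and 2120 kb in the MEF map. The median distance for E, M and L starts was 440, 152 and 398 kb in CH12. It was 437, 174 and 335 kb in primary B cells, and 565, 252 and 363 kb in the MEF map. The start was under 300 kb from an edge for 2 of 7 genes in CH12 (*Rif1* and *Xrcc4*), where 49.5% of all gene starts were. It was so for 1 gene in primary B cells (*Xrcc4*), where 48.6% of all gene starts were, and for 3 in the MEF map (*Rif1*, *Atm* and *Lig4*), where 39.8% were. Within 100 kb of an edge lay 0 of the 7 genes in either B cell map and 1, *Lig4*, in the MEF map, beside 20.3% (CH12), 18.8% (primary B) and 15.2% (MEF) of all gene starts.

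Base composition was a feature that the choice of genes did not use. GC content of the 200 kb around the start was 49.9% for *Ung*, 45.1% for *Trp53bp1*, 43.6% for *Msh6*, 42.6% for *Lig4*, 41.5% for *Rif1*, 39.7% for *Atm* and 37.6% for *Xrcc4*. Among CH12 gene starts the median was 46.9% for E, 43.0% for M and 40.0% for L. The 3 early genes were the 3 highest, but *Lig4*, late in every map, stood above both M genes. It lay above the upper quartile of L gene starts in each map (41.6% in CH12, 40.7% in primary B cells and 40.2% in the MEF map). *Atm* lay below the lower quartile of M gene starts (41.2, 40.5 and 40.5%). *Msh6* lay below the lower quartile of E gene starts (44.6, 43.9 and 44.1%) and *Ung* above their upper quartile (49.2, 48.8 and 48.8%). *Xrcc4*, at 37.61%, lay below the lower quartile of L starts in CH12 (38.39%) and, narrowly, in primary B cells (37.64%). It also lay below that of M starts in the MEF map (40.46%). *Rif1* lay below the lower quartile of E starts in the MEF map, where it was E. The order of the 7 starts by GC content was thus not the order of their states, although mean GC over all bins followed that order, at 45.7, 42.8 and 39.4% for E, M and L in CH12.

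**Figure D4:**
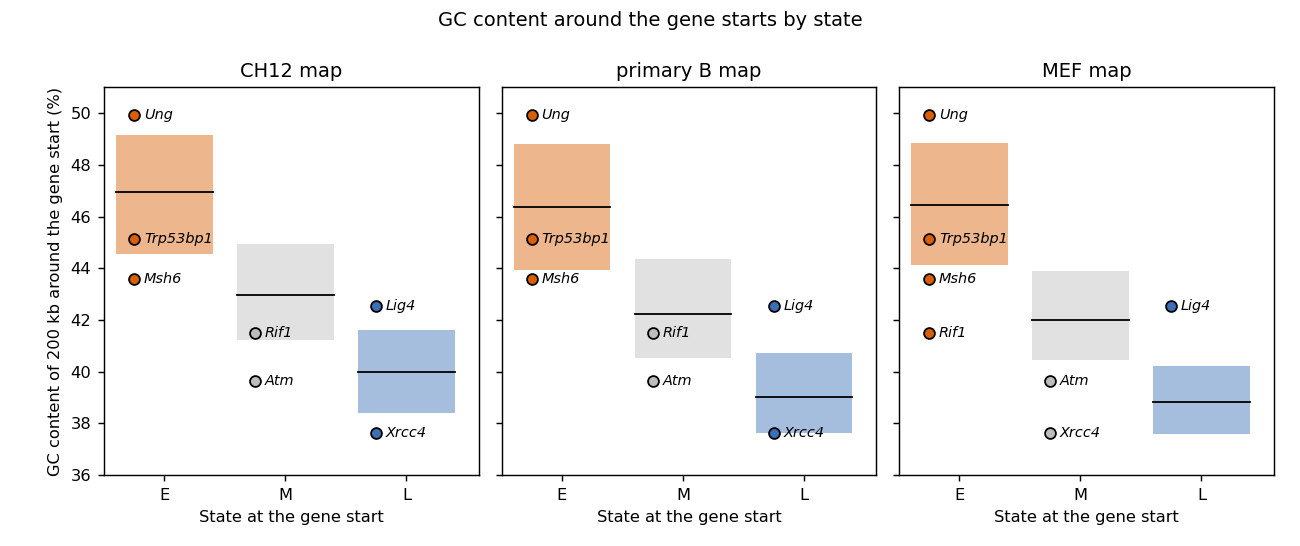
GC content of the 200 kb around each gene start (y axis, %; the axis does not start at 0) by state in each map. Shaded boxes span the lower to the upper quartile of all protein-coding gene starts in that state with a line at the median. Points are the 7 genes, with Lig4 above the box of L starts and Xrcc4 below the box of its state in each map.

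The other genes of the pathway were read as 5 lists with 36 genes. In CH12 cells 23 were E (63.9%), 12 M and 1 L. In primary B cells 26 were E (72.2%), 10 M and 0 L. In the MEF map 25 were E, 10 M and 1 L. The single L gene of the B cell maps was *Paxip1*, which encodes PTIP, a partner of 53BP1 in end protection. It was L in CH12 at 22.1 kb from an edge, about 1 bin, and M in primary B cells and in the MEF map. Shares of E starts were above the 50.6% and 58% of all gene starts, and were given without a test. All gene starts were 27.2% M and 22.1% L in CH12, and 29.1% M and 12.9% L in primary B cells. In the MEF map they were 58.6% E, 29.6% M and 11.9% L.

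The end joining list set *Xrcc4* and *Lig4* beside 7 genes for the same reaction, *Xrcc5*, *Xrcc6*, *Prkdc*, *Dclre1c*, *Nhej1*, *Polm* and *Poll*, which encode the Ku heterodimer, its kinase, an end-processing nuclease, a joining factor and a pair of polymerases. Of these, 6 were E and 1 M in CH12, and 5 were E and 2 M in primary B cells and in the MEF map, with 0 L in each. With *Xrcc4* and *Lig4* included, 2 of 9 end joining genes were L in either B cell map, beside 22.1% (CH12) and 12.9% (primary B) of all gene starts, so in CH12 the share is that of the background. The 2 ligase genes of the resection and alternative end joining list, *Lig1* and *Lig3*, were M in CH12, where 4 of the 8 genes of that list were M. Their starts were 57.4 and 65.4 kb from an edge there, inside the smoothing span. *Lig1* was M in the other maps too, at 123 kb from an edge in primary B cells and 177 kb in the MEF map, also inside the span. *Lig3* was E in primary B cells, at 195 kb from an edge, and M in the MEF map, at 425 kb.

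The remaining lists are read against all gene starts, which were 50.6% E, 27.2% M and 22.1% L in CH12 and 58% E, 29.1% M and 12.9% L in primary B cells. With 6 to 8 genes a list, no difference from these shares was tested. Uracil and mismatch processing had 3 E and 4 M genes of 7 in CH12, and 4 E and 3 M in primary B cells. *Exo1*, the exonuclease of mismatch repair, was M in both B cell maps and the L gene of the MEF map. The *Exo1* start was 69.1 kb from an edge in CH12 and 169 kb in primary B cells, inside the smoothing span, and 429 kb in the MEF map. Break sensing and signalling had 5 E and 3 M genes of 8 in CH12, and 7 E and 1 M in primary B cells. End protection had 5 E, 0 M and 1 L gene of 6 in CH12, and 4 E and 2 M in primary B cells. Resection and alternative end joining had 4 E and 4 M genes of 8 in CH12, and 6 E and 2 M in primary B cells.

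**Figure D5:**
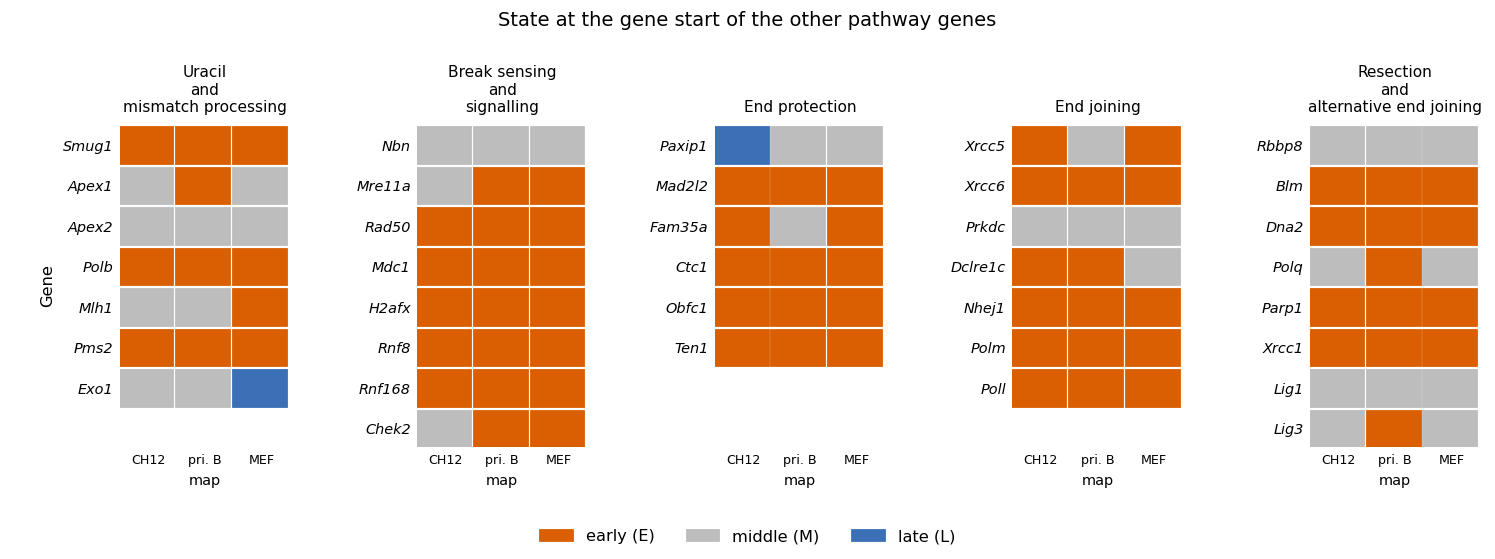
State at the gene start (colour) of the 36 other pathway genes (rows, in 5 lists) in the CH12, primary B and MEF maps (columns). L appears for Paxip1 in CH12 and for Exo1 in the MEF map, and the end joining list has 0 L cells.

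Of the 36 pathway genes, 28 had the same state in both B cell maps (77.8%, close to the 78.5% of all gene starts) and 8 did not. An earlier state in primary B cells was found for 6 (over all gene starts, 18.8%), and a later one for 2 (2.75%). *Apex1*, the abasic site endonuclease that acts after UNG, *Mre11a*, the nuclease of the break sensor complex, *Chek2*, a checkpoint kinase below ATM, *Polq*, the polymerase of alternative end joining, and *Lig3* were M in CH12 but E in the primary B map. *Paxip1* was the sixth. *Xrcc5*, which encodes Ku80, and *Fam35a*, a shieldin subunit, went the other way, with E in CH12 and M in the primary B map. Distances to the nearest edge in CH12 were 31.9 kb for *Polq*, 65.4 kb for *Lig3*, 83.7 kb for *Fam35a*, 89.0 kb for *Chek2* and 94.0 kb for *Xrcc5*, all within the smoothing span. They were 325 kb for *Apex1* and 449 kb for *Mre11a*. In primary B cells the distances were 611 kb for *Chek2*, 646 kb for *Xrcc5* and 311 kb for *Mre11a*, and under 300 kb for the other 5. Under 300 kb from an edge in CH12 were 6 of the 8 genes that differed, 18 of all 36 pathway genes and 49.5% of all gene starts.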

How the data were processed

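Repli-seq domain maps were analysed for shLacZ CH12 cells, WT primary B cells and MEF (1 map each). The other 5 groups were not analysed here. According to the methods, the authors trimmed reads (Trim Galore 0.6.5), aligned them to mm9 (BWA 0.7.17), kept unique alignments (SAMtools 1.9), merged replicates, removed duplicates, took log2 E/L ratios in 20 kb windows, loess-smoothed them over 300 kb and called 3 states with a hidden Markov model. The deposited files list domains with start, end and a numbered state, without RT values. Merging removes the replicate spread, and smoothing blurs edges.

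The state numbers are not named in the files. The state that separated the other 2 was named M, and of those the one with more gene starts per Mb was named E. This gave E to number 2, M to 1 and L to 0 in both B cell maps, and E to 0, M to 2 and L to 1 in the MEF map.

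Genes came from GENCODE M1 on NCBIM37. The 7 genes and 5 lists were chosen with earlier results of these data known, and all 7 genes are named with their values. Pathway genes are named where they were late in a B cell map or differed between the B cell maps, and others that are named were picked after their values were seen. Of 36 list genes, 34 matched by their own symbol and 2 (*Ctc1*, *Ten1*) by an older one. A further list gene and 1 upstream sequence are not reported here. Distances run from the gene start to the nearest base of the edge or state. Functions were tested on simulated maps with known answers. Python 3.11.15, numpy 2.4.6, pandas 2.3.3 and matplotlib 3.10.9 were used. Placing genes by their middle, end, gene body or transcript starts, and other domain filters, were tried as alternatives.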

Additional observations from a re-analysis of the deposited data

How the results depend on the processing

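Alternatives gave 285 values, of which 253 stayed within 1.5 times a count, length or distance, or within the Wilson 95% interval of a share or GC content, and 32 did not. Placing genes by their middle, by most of the gene body or by any transcript start, leaving out domains under 100 kb, or joining domains across up to 40 kb changed the state of 0 of the 7 genes in any map. Transcript starts, distances from the middle of the gene counted at 300 and 100 kb, and the filter at 100 kb for the pathway lists, were chosen after seeing the data. Placing genes by their end left 1 L gene in CH12 and 1 in primary B cells, since *Xrcc4* ends in M. With 100 kb in place of the smoothing span, 0 genes in CH12, 0 in primary B cells and 1 in the MEF map lay near an edge. By the middle of the gene these were 1, 1 and 2, since *Xrcc4* was then 51.4 kb from an edge in CH12 and 31.4 kb in primary B cells, and *Atm* 56.0 kb in the MEF map. Placed by their middle, 2 pathway genes were L in CH12 and 2 in the MEF map. With all gene types, gene starts were 44.8% E and 28.4% L in CH12, 51.7% E, 30.9% M and 17.4% L in primary B cells, and 51.8% E, 31.9% M and 16.3% L in the MEF map. On autosomes only they were 51.8% E and 21.3% L in CH12, 59.2% E and 28.2% M in primary B cells, and 61.1% E, 27.9% M and 11.0% L in the MEF map. In the 20 kb bin of the start, GC content fell outside the Wilson interval of the 200 kb value for 6 genes, with 45.8% for *Msh6* and 42.8% for *Trp53bp1* at the largest gaps. That interval counts each base as independent and is narrow, so it does not measure how GC content varies along a chromosome. These 6 values are among the 32 above. No paired analysis was possible because each condition has a single map of pooled replicates. What depth does to the states is unknown, since the maps hold no read counts.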
